A study of Mus musculus with 32 samples.

Results

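The clustered histone genes are the mouse genes with symbols of the form Hist1h, Hist2h, Hist3h and Hist4h. Members were chosen by that symbol pattern, and rows at 0 in every library were left out. Of 69 matching rows 9 were at 0 in all 32 libraries, which left 60 members of 24890 genes in the table. They comprised 6 H1, 16 H2A, 17 H2B, 10 H3 and 11 H4 genes, and 49 of them belonged to the Hist1 cluster, 7 to Hist2, 3 to Hist3 and 1 to Hist4.

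The RNA came from wild-type E14 mouse embryonic stem cells, a single cell line, in 2 arms. Both arms grew without feeder cells on gelatin, in serum medium with the cytokine LIF (1000 U/mL), the GSK3 inhibitor CHIR99021 (3 µM) and the MEK inhibitor PD0325901 (1 µM). ESC, the control arm, received nothing else, and NrESC was kept in the same medium plus T0901317 (10 µM), a small molecule that activates the liver X receptors. Each arm was sampled at passages 0, 2, 4, 6, 8, 10, 12 and 14 with 2 libraries of polyadenylated RNA each, 16 groups in all. Nothing in the labels ties the libraries of a group to separate cultures. The p-values then describe only the spread between these libraries, which may be technical.

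Histones H2A, H2B, H3 and H4 form the core around which DNA is wrapped, and H1, the linker histone, binds where DNA enters and leaves it. The clustered genes are transcribed mainly in S phase, when new DNA needs new histones. Their mRNAs usually end, not in a poly(A) tail, but just after a conserved stem-loop that is bound by the protein Slbp, and a polyadenylated form arises when a downstream poly(A) signal is used, as is known from differentiating cells. Selection for poly(A) therefore captures only a small part of these transcripts, and a level in these libraries reports the captured part, not the total histone mRNA. In bulk RNA, more cells with a transcript and more transcript per cell cannot be told apart.

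The letters of the stem-loop were rare in the annotation outside these genes. They were searched at any position in the mouse transcripts of GENCODE M21 (GRCm38), not only at the 3′ end. A match was found in 39 of the 60 members and in 155 of 55271 other genes (0.28%), where it need not be a stem-loop. The stem-loop is printed here, in capitals with 5 bases on each side, for several members with many counts and for at least 1 member of each of its 8 forms.
Hist1h1c: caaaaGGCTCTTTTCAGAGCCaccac
Hist1h1d: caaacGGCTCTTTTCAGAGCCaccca
Hist3h2a: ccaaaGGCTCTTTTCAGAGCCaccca
Hist1h3c: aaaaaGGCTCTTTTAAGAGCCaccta
Hist1h3e: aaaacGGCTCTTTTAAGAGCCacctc
Hist1h3g: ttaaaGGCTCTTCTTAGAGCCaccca
Hist1h4i: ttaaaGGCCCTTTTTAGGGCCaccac
Hist1h4f: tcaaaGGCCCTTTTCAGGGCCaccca
Hist1h4a: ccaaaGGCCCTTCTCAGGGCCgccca
Hist1h4b: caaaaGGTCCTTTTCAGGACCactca
Hist2h2ac: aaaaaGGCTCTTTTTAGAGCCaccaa
The form of Hist1h1c, Hist1h1d and Hist3h2a was the most common, shared by 21 members. Hist1h3c and Hist1h3e carried a form found in 6 members, and Hist1h4f one found in 5. Those of Hist1h4i and Hist1h4b were each found in 2 members, and those of Hist1h4a, Hist1h3g and Hist2h2ac in 1. Of the 21 members with no match, 17 had a longest model whose length was a multiple of 3, as a model that holds only coding sequence would have, so the absence of a match says only that these letters are not in the annotated transcript. Hist1h1a, Hist1h1b, Hist1h2bc and Hist2h2be were among the members with no match. In 13 members AATAAA, the letters of a poly(A) signal, occurred somewhere after the stem-loop on the strand of an annotated transcript, among them Hist1h1c, Hist1h1d and Hist3h2a. In these 3 the stretch searched was 840, 4884 and 1643 bases long. Whether the letters lay near the transcript's end was not checked, so a match need not be a signal in use.

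Depth limited what could be measured. Libraries held 24989652 to 50463489 counts, of which the members together took 625 to 2584. Between 49 and 58 members had a count in a given library, and 39 had one in all 32. After genes with too few counts were removed, 45 members were tested among 15036 genes, with a median count per library between 2 and 157, and 35 of the 45 averaged under 1 CPM (counts scaled to an equal library total). The filter took libraries of either arm, so NrESC alone could carry a member through. That was so, for example, for Hist2h2ac, Hist1h4f and Hist1h2bm. Their highest ESC libraries stood at 0.16, 0.24 and 0.24 CPM and their highest NrESC libraries at 0.60, 0.42 and 0.39. Hist2h2bb, Hist1h2ah and Hist1h2ak, with highest ESC libraries at 0.32, 0.31 and 0.28 CPM, also needed NrESC libraries to pass. Of the 15 members not tested, Hist2h3b was highest at 0.105 CPM, followed by Hist1h3b at 0.0956, Hist1h2an at 0.0943, Hist1h2ab at 0.0882 and Hist1h2ad at 0.0602. The untested members summed to 0.595 CPM ± 0.129 in ESC and to 0.730 ± 0.343 in NrESC (mean ± SD of the 8 passages). A gene with 3 counts, the limit that a count of 0 allows, would have stood at 0.0761 CPM in the first ESC library of passage 0.

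Many of these genes are near copies of each other. The 9 rows at 0 (Hist1h2ao, Hist1h2ap, Hist1h2bq, Hist1h2br, Hist1h4m, Hist1h4n, Hist2h2aa1, Hist2h3c1 and Hist2h3c2) had few 50-base words of their own, 0% to 36.5% of the words in their transcripts with a median of 6.93%. The 60 counted members had a median of 53.6%, from 0% to 100%. Members with few words of their own included Hist2h2bb with 0%, Hist1h3h with 6.08%, Hist1h2ah with 7.87%, Hist1h3i with 12.4%, Hist1h2bk with 25.8%, Hist1h3e with 26.6% and Hist1h4k with 28.5%. Their values depend on how the authors' counting treated shared reads and are uncertain. Fractional values made up 0% of the members' counts and 0.837% of all, so no division of shared reads shows in the members. Hist1h1a, Hist1h1b and Hist2h2be had 100%, Hist1h1d 97.7% and Hist1h1c 91.5%. These shares are those of the GENCODE transcripts, which need not be the ones the authors counted.

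Summed over the 60 members, the level was higher in NrESC than in ESC at 8 of 8 passages. It averaged 26.4 CPM ± 3.71 for ESC and 39.7 CPM ± 13.7 for NrESC (mean ± SD of the 8 passages), and the mean log2 ratio of the passages was 0.54 ± 0.32 (SD). ESC libraries ran from 21.1 to 34.1 CPM and NrESC libraries from 25.0 to 71.8 CPM. Both NrESC libraries lay above both ESC libraries at 7 passages and overlapped with them at passage 14. In TPM, the authors' measure of transcript abundance corrected for gene length, the sum was 149 TPM in ESC and 207 TPM in NrESC, so all 60 genes together stood far below the single variant gene H2afz, at 1675 TPM in ESC.

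The size of the difference moved from passage to passage. At passage 0 the ESC libraries stood at 25.9 and 25.2 CPM and the NrESC libraries at 37.4 and 37.1, a 1.46-fold difference. At passage 4 they stood at 34.1 and 33.5 against 66.3 and 71.8, which was 2.04-fold and the highest level of both arms. At passage 8 they stood at 25.5 and 22.9 against 46.9 and 48.1, or 1.97-fold. The other early and middle passages lay lower, at 1.27-fold for passage 2, 1.34-fold for passage 6 and 1.22-fold for passage 10, with 1.45-fold at passage 12. At passage 14 the ESC libraries stood at 21.1 and 25.2 CPM and the NrESC libraries at 25.0 and 26.4, a ratio of 1.11 with overlapping libraries and the lowest level of both arms. Between passages 4 and 14 the group mean spanned 2.69-fold in NrESC and 1.46-fold in ESC.

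**Figure D1:**
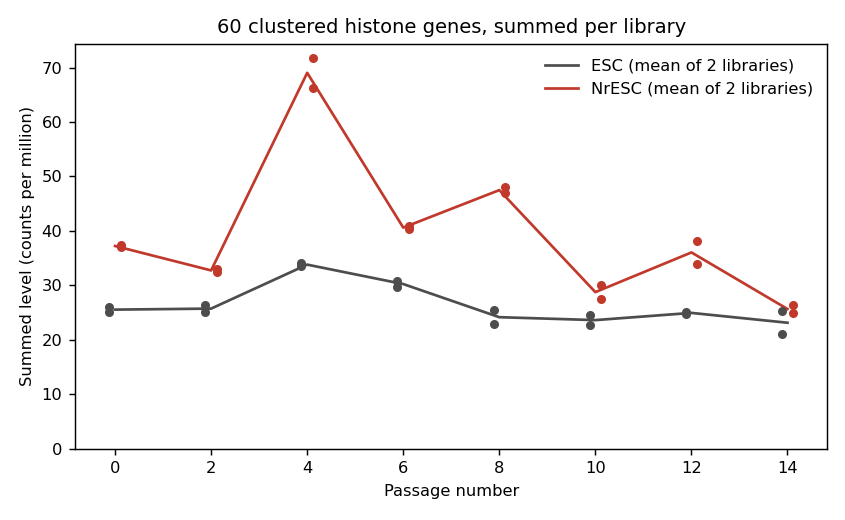
Summed level of the 60 clustered histone genes in CPM (vertical axis) by passage number (horizontal axis); each point is 1 library and each line joins the means of the 2 libraries of an arm. NrESC peaks at passages 4 (66.3 and 71.8) and 8 (46.9 and 48.1) and meets ESC at passage 14.

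Gene by gene, 29 of the 45 tested members were higher in NrESC in the mean of the 8 passages and 0 were lower (edgeR's quasi-likelihood test, Benjamini-Hochberg adjusted p under 0.05 over all 15036 genes). The arms differed over much of the transcriptome: 39.1% of all genes tested were called higher in NrESC and 39.8% lower. Among the members 64.4% were called higher. Those called include Hist2h2ac, Hist1h4f, Hist2h2bb, Hist1h2ah and Hist1h2ak, whose ESC libraries alone would not have passed the count filter. That selection favours a positive value, and the 29, the 64.4% and the median of 0.53 include these members. The members' median log2 fold change was 0.53, against -0.00 for all genes, and 41 of the 45 values were positive. With passage as the unit of replication, which uses the spread between passages, 24 members were higher and 0 lower. The passages of an arm follow one another in culture, so they may not be independent replicates.

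All 5 tested H1 genes were higher (39.1% of all genes). Hist1h1c, the most abundant member with 14.9% of all histone counts, had a lowest, median and highest ESC library of 2.99, 3.78 and 5.18 CPM, against 3.39, 4.90 and 11.2 in NrESC. The arms overlapped across passages, and the highest libraries were those of NrESC at passages 4 and 8. Its log2 fold change was 0.48 (SE 0.056, adjusted p = 3.03e-10 by edgeR). Hist1h1d ran at 0.200, 0.469 and 1.55 CPM in ESC and at 0.521, 1.51 and 3.83 in NrESC. Its log2 fold change was 1.22 (SE 0.12, adjusted p = 3.56e-12 by edgeR). Hist1h1b ran at 0.236, 0.566 and 1.71 CPM in ESC and at 0.418, 1.37 and 4.55 in NrESC. NrESC was higher at 8 of 8 passages for both genes, with both libraries apart at 7. The log2 fold change of Hist1h1b was 1.13 (SE 0.10, adjusted p = 4.45e-13 by edgeR). Hist1h1e rose by 0.84 (SE 0.18) and Hist1h1a by 0.47 (SE 0.096) on the same scale. Hist1h1t, a linker histone known from the testis, was not tested and averaged 0.0311 CPM.

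Among the core histone genes, Hist2h2be, an H2B gene, was called at the most passages. Its lowest, median and highest ESC library stood at 0.507, 1.02 and 1.52 CPM and those of NrESC at 1.65, 2.18 and 3.45, so that every NrESC library lay above every ESC library. The log2 fold change was 1.15 (SE 0.081, adjusted p = 1.27e-16 by edgeR), and the gene was called at 7 of 8 passages, all but passage 2, although its difference also varied among passages (adjusted p = 0.0264 by edgeR's joint test). Hist1h2bc, the second most abundant member with 11.1% of the histone counts, ran at 2.36, 2.94 and 3.40 CPM in ESC and at 2.67, 4.19 and 6.02 in NrESC, with a log2 fold change of 0.53 (SE 0.053). Both belong to the H2B genes, of which 5 of 14 were higher, the smallest share of the classes and no larger than that of all genes (39.1%). The other 3 were Hist2h2bb at 0.90, Hist3h2ba at 0.61 and Hist1h2bg at 0.54, and each of these lost its call under at least 1 alternative, all of them without the second NrESC library of passage 14. Hist2h2bb also needed NrESC libraries to pass the count filter. The H2B genes that were not called had log2 fold changes of 0.44 for Hist1h2bp, 0.39 for Hist1h2bb, 0.30 for Hist1h2bh, 0.27 for Hist1h2bl, 0.26 for Hist1h2bj, 0.24 for Hist1h2bf, 0.19 for Hist1h2bk, 0.18 for Hist1h2be and -0.32 for Hist1h2bm.

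Of the H2A genes 5 of 9 were higher (39.1% of all genes). Hist3h2a, the most abundant of them, ran at 0.657, 0.879 and 1.35 CPM (lowest, median and highest) in ESC and at 0.743, 1.46 and 2.61 in NrESC, with both libraries apart at 8 of 8 passages and a log2 fold change of 0.67 (SE 0.091). Hist2h2ac had the largest fold change of all members, 1.67 (SE 0.45), at a level near the limit of counting: 24 counts over the 16 ESC libraries and 84 over the 16 NrESC libraries, or 0.0446 against 0.142 CPM when pooled. It had no count in 4 ESC libraries, both of passage 10 among them, so that fitted value depends on how a count of 0 is handled and is no bound. Hist2h2ac, Hist1h2ah and Hist1h2ak also needed NrESC libraries to pass the count filter, a selection that favours a positive value. Hist1h2ah rose by 0.74, Hist1h2ak by 0.60 and Hist1h2al by 0.53 on the log2 scale, calls that were lost under some alternatives, among them leaving out passage 8 for Hist1h2ah and passage 4 for the others. Hist1h2af (0.11), Hist1h2ae (0.04), Hist1h2ai (-0.08) and Hist1h2ag (-0.24) were not called.

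Of the H3 genes 7 of 8 were higher, and of the H4 genes 7 of 9 (39.1% of all genes). Hist1h3g ran at 0.931, 1.21 and 1.57 CPM in ESC and at 1.10, 1.73 and 3.58 in NrESC, with a log2 fold change of 0.54 (SE 0.086). The other H3 genes called were Hist1h3f at 0.79, Hist1h3e at 0.76, Hist1h3i at 0.75, Hist1h3a at 0.57, Hist1h3d at 0.56 and Hist1h3h at 0.39. The call of Hist1h3d was lost without the first NrESC library of passage 10 and that of Hist1h3h with passage as the unit. The exception was Hist1h3c, one of the 7 members that together held 51.1% of the histone counts. It ran at 0.678, 1.31 and 2.17 CPM in ESC and at 0.832, 1.32 and 2.72 in NrESC, and its log2 fold change was 0.08 (SE 0.098; the edgeR adjusted p was 0.455). Hist1h4i, the member with the highest level per length at 21.2 TPM, ran at 1.08, 1.92 and 2.64 CPM in ESC and at 1.63, 2.13 and 3.03 in NrESC. Its log2 fold change of 0.20 (SE 0.072) passed the test at an adjusted p of 0.0122 by edgeR, but not with passage as the unit (adjusted p = 0.0913). Hist1h4f had 1.07 (SE 0.31), from 60 counts in ESC and 132 in NrESC, and Hist1h4k had 0.83, Hist2h4 0.81, Hist1h4d 0.75, Hist1h4a 0.60 and Hist1h4h 0.42. Hist1h4f, too, passed the count filter only through NrESC libraries. The call of Hist1h4h was lost with DESeq2, with passage as the unit and without passage 4. Hist4h4 (0.21) and Hist1h4b (-0.16) were not called.

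**Figure D2:**
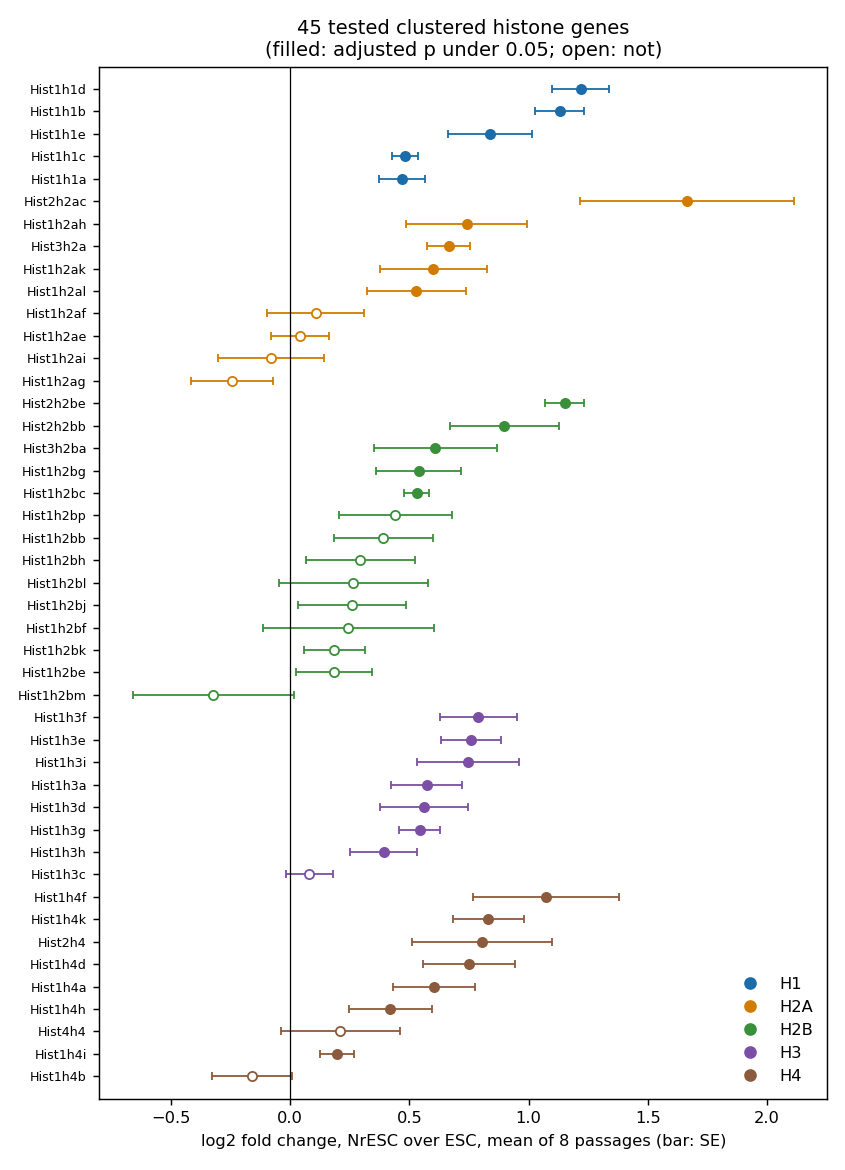
Log2 fold change of NrESC over ESC in the mean of 8 passages (horizontal axis) for each of the 45 tested members, coloured by histone class; bars are standard errors of the edgeR fit, and filled points have an adjusted p under 0.05. The 29 filled points all lie to the right of 0, and Hist2h2ac has the widest bar among the points past 1.

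The classes differed in size of change in these values, a difference that was not tested. Summed H1 genes averaged 6.83 CPM ± 1.57 in ESC and 11.7 ± 5.76 in NrESC (mean ± SD of the 8 passages). H2B genes stood at 6.86 ± 0.592 and 10.6 ± 2.71, and were the class whose libraries were apart at 8 of 8 passages. H3 genes stood at 5.12 ± 0.836 and 7.39 ± 2.65. H4 genes stood at 4.04 ± 0.661 and 5.37 ± 1.35, and H2A genes at 3.56 ± 0.336 and 4.69 ± 1.53. The median log2 fold change of the tested genes was 0.84 for H1, 0.60 for H4, 0.57 for H3, 0.53 for H2A and 0.34 for H2B.

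At single passages the H1 sum spread furthest. It was 2.71-fold higher at passage 8, with 6.08 CPM ± 0.547 in ESC and 16.5 ± 0.559 in NrESC (SD, n = 2), and 2.39-fold higher at passage 4. The H4 sum was 1.37-fold higher at passage 8 and 1.61-fold higher at passage 4. At passage 14 the class ratios lay between 0.916 for H2A and 1.22 for H4, with H1 at 1.07.

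**Figure D3:**
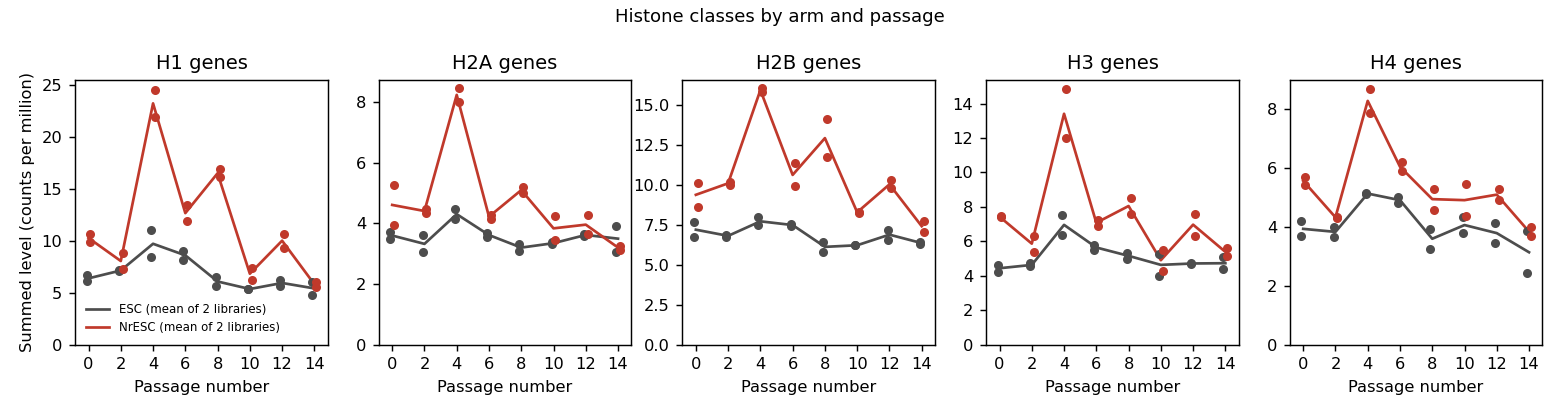
Summed level of each histone class in CPM (vertical axes, each from 0 and each with its own scale) by passage number; points are libraries and lines join the means of 2 libraries. The H1 panel shows the passage 8 rise of NrESC to 16.5 against 6.08 in ESC, and all panels show the passage 4 rise.

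Tested passage by passage, the members followed the sums. Every number called at a passage is given with the share of all 15036 genes called there in the same direction. At passage 0, 11 of 45 members were higher (17.6% of all genes) and 0 lower (14.8%). Hist1h4d stood highest among those called, at 2.09 (SE 0.53), with ESC libraries of 0.228 and 0.107 CPM and NrESC libraries of 0.699 and 0.821. At passage 2, 4 members were higher (24.7%) and 0 lower (23.8%): Hist1h1d, Hist1h2bc, Hist1h3f and Hist3h2a. At passage 6, 8 were higher (23.6%) and 0 lower (25.1%), with Hist1h4k at 2.03 (SE 0.41).

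Passage 4 had the most calls, with 23 members higher (27.4%) and 0 lower (26.9%), a median log2 fold change of 0.94, and a positive value for 45 of 45 members. Hist1h1b stood at 1.71 and 1.30 CPM in ESC and at 4.55 and 4.33 in NrESC there. Hist1h1a stood at 1.90 and 1.77 against 4.47 and 5.45, and its log2 fold change was 1.46 (SE 0.22) at passage 4 and -0.29 (SE 0.33) at passage 14. Hist1h3g stood at 1.30 and 1.53 against 3.51 and 3.58. In each of these genes both NrESC libraries lay above both ESC libraries.

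At passage 8, 17 members were higher (35.2%) and 1 lower (34.6%). Hist1h1c stood at 4.04 and 3.41 CPM in ESC and at 11.2 and 9.55 in NrESC, its largest difference, and its log2 fold change was 1.46 (SE 0.14; the edgeR adjusted p was 5.81e-12). Hist2h2be stood at 0.952 and 0.878 against 2.93 and 3.45. The member called lower was Hist1h2bm, on 3 and 9 counts in ESC and 0 and 1 in NrESC, and that call was lost without the second ESC library or without the first NrESC library. Passage 8 also had the largest share of all genes called, and of 10 embryonic stem cell markers 4 were higher there in NrESC and 6 lower. On the log2 scale Zfp42 fell by 1.32, Sox2 by 0.94 and Nanog by 0.93, while Dppa5a rose by 0.72 and Pou5f1 by 0.21. Without passage 8, 25 members were higher in the mean and 0 lower, and the log2 ratio of the sums was 0.47. Without passage 4 the count was also 25, and the ratio 0.46.

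Passages 10, 12 and 14 had fewer calls than passages 0, 4 and 8, though not fewer than every earlier passage. At passage 10, 5 members were higher (27.0%) and 0 lower (28.5%), and at passage 12, 9 were higher (23.1%) and 0 lower (24.0%). At passage 12 Hist1h1d stood at 0.246 and 0.447 CPM in ESC and at 1.55 and 1.47 in NrESC, its largest log2 fold change at 2.07 (SE 0.35). At passage 14, 3 members were higher (19.7%) and 0 lower (21.3%): Hist2h2be, Hist1h2ah and Hist1h3h. At passages 2, 6, 10, 12 and 14 the share of members called was below that of all genes. Counts at single passages also rested on single libraries. Passage 0 fell from 11 to 3 without the first ESC library and passage 8 from 17 to 11 without the second. Passage 2 fell from 4 to 2 without the second ESC library.

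**Figure D4:**
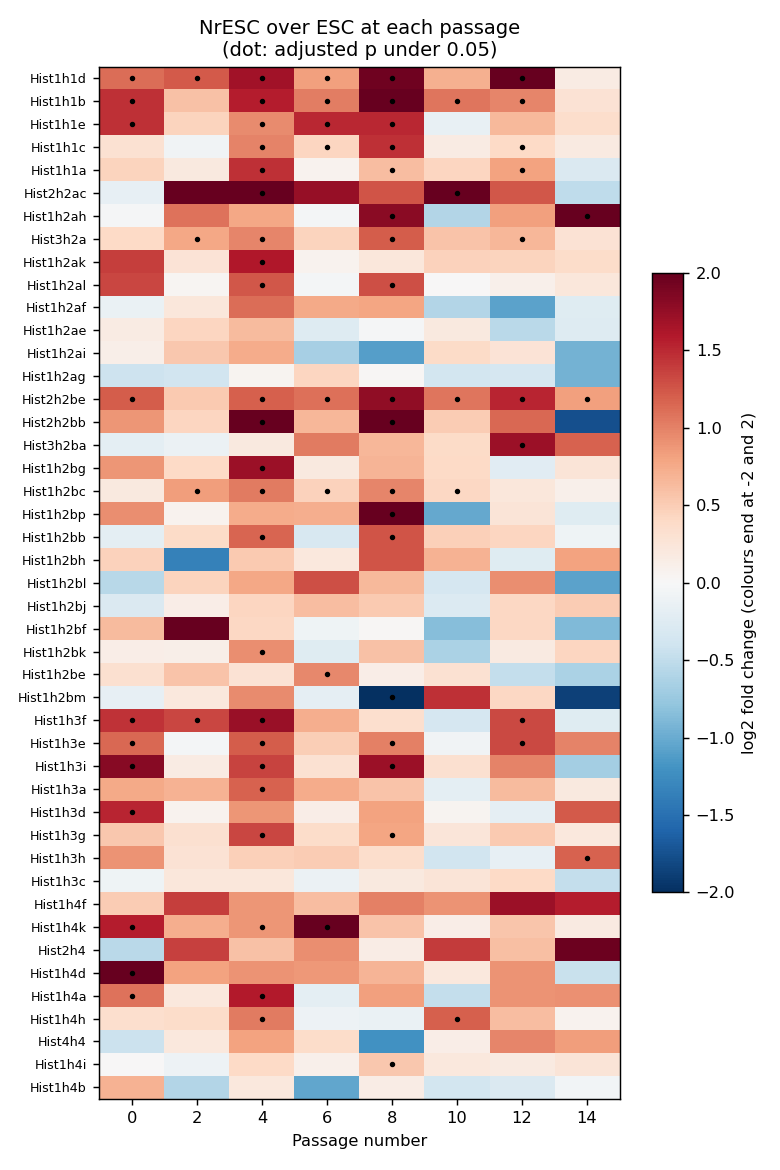
Log2 fold change of NrESC over ESC (colour; red is higher in NrESC, and values past the ends of the scale take its end colour) for the 45 tested members (rows, ordered by class and mean fold change) at each passage (columns); a dot marks an adjusted p under 0.05. Passage 4 has 23 dots and no negative value, and passage 14 has 3 dots.

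The difference varied among passages for 11 of 45 members, against 69.4% of all genes (a joint test of the 8 passage differences). The smallest p was that of Hist1h1c, whose log2 fold change ran from -0.08 (SE 0.15) at passage 2 to 1.46 at passage 8. Hist1h2bc ran from 0.10 (SE 0.17) at passage 14 to 1.04 (SE 0.15) at passage 4. Of the 45 members, 12 had their highest fold change at passage 4 and 9 at passage 8, while 15 had their lowest at passage 14 and 10 at passage 10.

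Slopes over passage number were tested in each arm. In NrESC the slope was negative and called for 18 members (31.3% of all genes) and positive for 1 (28.6%), Hist2h2be. Hist1h1e fell by 0.11 log2 units per passage (SE 0.022) and Hist1h1b by 0.11 (SE 0.014), and Hist2h2be rose by 0.03 (SE 0.011). In ESC the slope was negative and called for 8 members (28.2%) and positive for 0 (27.3%), among them Hist1h1b and Hist1h1c. The slopes of the arms differed for 1 member, Hist1h3f, lower in NrESC (14.2% of all genes), and for 0 in the other direction (11.2%). With passage as the unit 0 slopes were called in either arm.

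Promoters are shown for the H1 genes, the class of which every tested gene was higher. RefSeq's table (GRCm38.p6) held a promoter, 250 bases before to 50 after the start, for 53 members. Each sequence printed is the 160 bases before the start, in the direction of transcription, with matches in capitals. The letters searched, on both strands, were CCAAT and, beside it, TATAAA, then the octamer ATTTGCAT, and AAACACA, a box known from H1 promoters that was added to the search after earlier matches were seen.
Hist1h1c (RefSeq H1f2, chr13:23738647-23738806, plus strand): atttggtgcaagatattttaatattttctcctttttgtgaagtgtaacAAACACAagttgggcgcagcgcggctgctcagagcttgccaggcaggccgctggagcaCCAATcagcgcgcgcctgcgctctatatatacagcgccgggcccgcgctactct
Hist1h1d (RefSeq H1f3, chr13:23554872-23555031, plus strand): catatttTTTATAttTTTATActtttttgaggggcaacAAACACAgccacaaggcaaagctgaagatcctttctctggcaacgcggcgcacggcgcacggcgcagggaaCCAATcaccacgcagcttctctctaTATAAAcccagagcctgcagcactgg
Hist1h1b (RefSeq H1f5, chr13:21780626-21780785, minus strand): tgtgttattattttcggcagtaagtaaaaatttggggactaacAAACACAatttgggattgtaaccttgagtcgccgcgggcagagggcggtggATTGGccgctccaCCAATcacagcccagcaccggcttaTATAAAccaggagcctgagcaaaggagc
Hist1h1e (RefSeq H1f4, chr13:23622559-23622718, minus strand): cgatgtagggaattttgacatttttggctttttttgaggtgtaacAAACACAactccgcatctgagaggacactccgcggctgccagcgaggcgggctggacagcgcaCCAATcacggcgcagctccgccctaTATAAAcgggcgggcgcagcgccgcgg
Hist1h1a (RefSeq H1f1, chr13:23763508-23763667, plus strand): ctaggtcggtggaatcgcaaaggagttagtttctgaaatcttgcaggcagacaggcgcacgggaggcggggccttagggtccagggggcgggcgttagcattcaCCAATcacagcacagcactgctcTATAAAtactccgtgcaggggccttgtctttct
AAACACA was found in 5 of 6 H1 promoters, those of the first 4 genes printed among them, and in 8.22% of the 27025 genes with a promoter. These and the following shares are of genes, with a match in any promoter of the gene. CCAAT was found in 86.8% of the members with a promoter and 41.1% of all genes, and TATAAA in 60.4% and 15.7%. By class, CCAAT was found in 100% of the H1, H2A, H2B and H3 genes but in only 3 of 10 H4 genes (30%). ATTTGCAT was found in 7 of 15 H2A and 7 of 14 H2B promoters and in 1.97% of all. It was in none of the 6 H1, 8 H3 and 10 H4 promoters. These are matches of letters, not sites of binding.

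The calls were also set beside features of the annotated transcripts, with no test made. Of all tested genes 39.1% were called higher. Of the 31 tested members with a stem-loop in an annotated transcript 18 were higher, and of the 14 without, 11. Of the 10 with AATAAA after the stem-loop 6 were higher, with a median log2 fold change of 0.54, and of the other 35, 23 were higher, with a median of 0.53. Of the 27 with at least 50% of words of their own 19 were higher, and of the 18 with less, 10. Among genes outside the clusters, 684 with a longest transcript under 1000 bases had a median log2 fold change of 0.06, with 45.3% called higher and 26.6% lower, and 59 with 1 exon and under 1000 bases had a median of 0.04. At passage 4 the 684 had a median of 0.12, with 36.5% higher and 12.9% lower (27.4% and 26.9% of all genes). At passage 8 they had 0.18, with 42.5% higher and 19.9% lower (35.2% and 34.6%). The 59 had medians of 0.06 and 0.02 there. These length limits were chosen after the data were seen.

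Most histone genes outside the clusters make polyadenylated mRNA in all cell cycle phases. Of 11 genes outside the clusters that were tested, 8 were higher in NrESC and 2 lower in the mean of 8 passages (39.1% and 39.8% of all genes). Their median log2 fold change was 0.16. H1f0, a linker histone known from slowly dividing cells, averaged 67.2 CPM ± 10.6 in ESC and 106 ± 15.4 in NrESC (mean ± SD of the 8 passages), a log2 fold change of 0.65 (SE 0.017). H2afx, the H2A variant phosphorylated at DNA breaks, had 0.43 (SE 0.016) and H1fx 0.58 (SE 0.028). H2afz, which replaces H2A at promoters, rose by 0.12. Of the H3 variant genes, H3f3a had -0.00 and was not called, and H3f3b fell by 0.10.

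Of 20 tested genes that make or process histone mRNA, 8 were higher and 10 lower in the mean (39.1% and 39.8% of all genes), with a median log2 fold change of -0.03. Slbp, the stem-loop binding protein, averaged 162 CPM ± 7.83 in ESC and 150 ± 20.0 in NrESC, with a log2 fold change of -0.13 (SE 0.010) in the mean, and it fell by 0.55 at passage 8 and by 0.21 at passage 4. Casp8ap2 fell by 0.22 and Npat, the activator of the clusters, had -0.03, while Lsm11, a subunit of the U7 particle that cuts histone mRNA, had 0.11. Srrt fell by 0.32, Ncbp2 by 0.35, and Nelfe rose by 0.29. In the general cleavage and polyadenylation machinery 4 of 16 were higher and 10 lower, beside the same shares of all genes. Pcf11 fell by 0.42, Cstf3 by 0.43 and Papola, a poly(A) polymerase, by 0.22.

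Of 24 genes of S phase 4 were higher and 17 lower (39.1% and 39.8% of all genes), with a median log2 fold change of -0.10. Ccne2, a cyclin of S phase entry, fell by 0.50, Ccne1 by 0.22 and the helicase subunit Mcm2 by 0.16. Of genes of cell cycle exit 9 of 17 were higher and 5 lower, beside the same shares of all genes. The inhibitor Cdkn1a rose by 0.43 and Cdkn1b by 0.27, and E2f8 fell by 0.36. Of histone chaperones 5 of 16 were higher and 9 lower, again beside those shares, with Atrx falling by 0.52, Nasp by 0.22 and Nap1l1 by 0.23.

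Few other RNAs that lack a poly(A) tail could be measured. Of 32 listed, 17 had a row, 7 a count in some library and 4 enough counts to be tested. Of those 4, 3 were higher in the mean and 0 lower (39.1% and 39.8% of all genes), with 2 called higher at passage 4, 1 at passage 8 and 0 at passage 14. Rmrp, the RNA of a ribonuclease, averaged 0.291 CPM ± 0.142 in ESC and 0.887 ± 0.559 in NrESC (mean ± SD of the 8 passages), a log2 fold change of 1.48 (SE 0.16). Scarna13 had 0.77 (SE 0.22), and the ribosomal RNA precursor Rn45s had 0.23 (SE 0.030). Terc, the telomerase RNA, had 0.38 (SE 0.23) and was not called. Rn45s stood at 1257 to 2054 CPM in ESC libraries and at 1436 to 2634 in NrESC libraries. At passage 4 it differed with the members, with a log2 fold change of 0.53, and at passage 8 it did not, with 0.00 (adjusted p = 0.965 by edgeR), while Rmrp had 1.73 and 2.06. The part of RNA without a tail in the histone result was not tested.

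**Figure D5:**
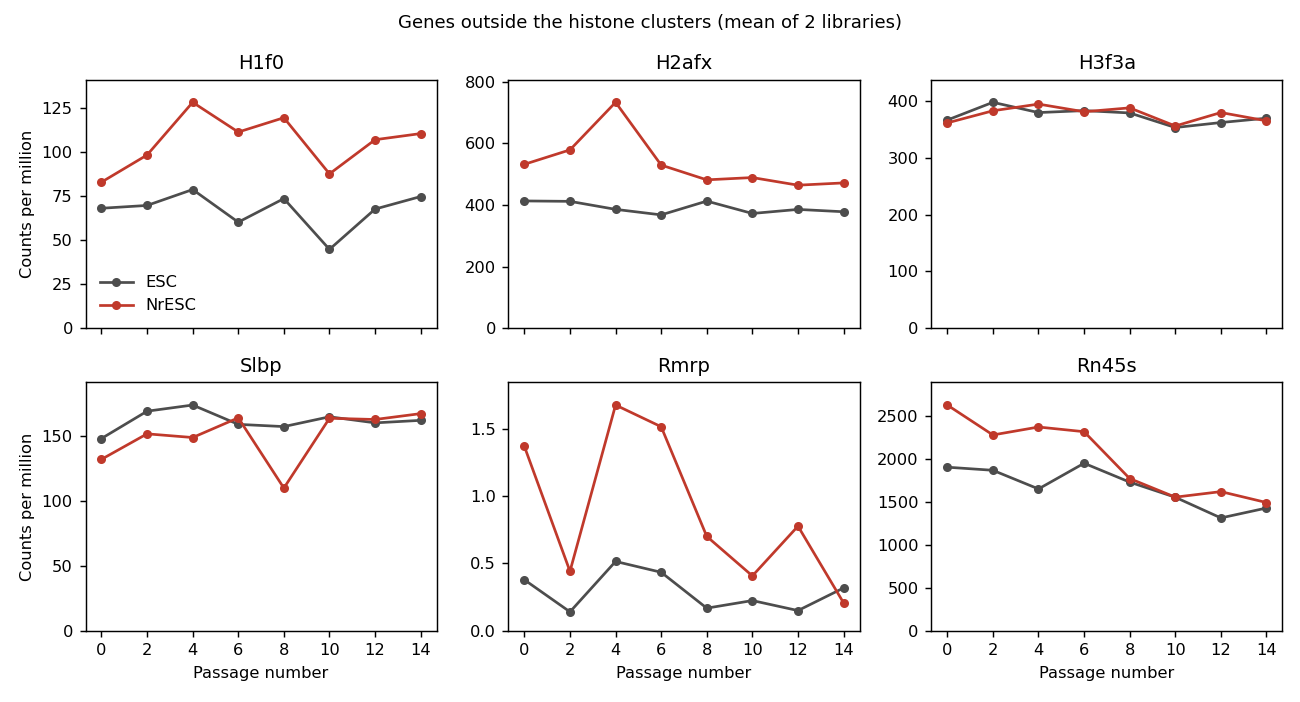
Mean level of 2 libraries in CPM (vertical axes, each from 0) by passage number for 6 genes outside the clusters in ESC and NrESC. H1f0 and H2afx lie higher in NrESC, H3f3a overlaps, Slbp dips in NrESC at passage 8, and Rn45s differs at passage 4 but not at passage 8.

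Markers of other cell types were also counted, beside 39.1% of all genes called higher and 39.8% lower in the mean. Of 9 fibroblast markers 4 were tested and 3 were higher, led by Pdgfrb, Col1a1 and Thy1. Their sum was 18.3 to 34.5 CPM among ESC libraries, and 25.2 to 49.1 among NrESC libraries, 32.1 and 32.6 at passage 4 and 47.9 and 49.1 at passage 8, with Lum at 0 in all libraries and Dcn and Col3a1 under 0.01 CPM. Of 10 trophectoderm and endoderm markers 7 were tested, 2 were higher (Tfap2c and Gata4) and 2 lower (Gata3 and Cdx2). Their sum was 40.3 to 62.8 CPM among ESC libraries and 45.3 to 92.1 among NrESC libraries, highest at passage 8 (90.5 and 92.1). The defining markers of embryonic stem cells were present in both arms, with Pou5f1 at 1369 CPM in ESC and 1525 in NrESC, and of 10 such markers 4 were higher and 6 lower. The part of other cell types in the histone result was not tested.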

How the data were processed

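Per the file headers, the authors deposited expected counts per gene and a table in TPM, both from gene-level RSEM output. Per the submitters' processing notes build mm9 and the tools RSEM, STAR, HTSeq 0.12.4, Cufflinks 2.2.1, edgeR and DESeq2 were used. Their roles, the annotation and the strand setting are not given in the sources used here. Expected counts were rounded (0.837% of values were fractional, 0% among members). A quasi-likelihood model (edgeR 4.0.16, R 4.3.3, TMM, filterByExpr, with 16 residual degrees of freedom) took all 32 libraries and 15036 genes together, with Benjamini-Hochberg adjustment and a threshold of 0.05. It was also run on simulated data in which few genes changed, all upward in NrESC. In the real data many genes differed in both directions, so that run does not vouch for the calls here. Over all tested genes no 2 libraries of a group agreed within sampling noise, with a chi-square per gene of 1.70 to 3.21. Over the members alone it was 1.16 (ESC, passage 12) to 2.20 (ESC, passage 14), so some pairs lay close to sampling noise. Sequences are from GENCODE M21 and RefSeq (GRCm38.p6), another build than the files'. The members, lists and the rule for named genes (8 most abundant, 5 largest changes each way, smallest p for variation and slope, other tested members once, 3 of each list) were chosen with earlier results of these data known.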

Additional observations from a re-analysis of the deposited data

Results flagged for a closer look

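For 11 members the difference between NrESC and ESC was not the same at all passages, by a joint test of the 8 passage differences (edgeR's quasi-likelihood test, adjusted over 15036 genes). Of all genes 69.4% passed that test. The adjusted p was 4.09e-07 for Hist1h1c, 0.000208 for Hist1h2bc, 0.00223 for Hist1h1a, 0.00239 for Hist2h2bb and 0.0108 for Hist1h1d. It was 0.0189 for Hist1h1b, 0.0201 for Hist1h3f, 0.0264 for Hist2h2be, 0.0386 for Hist1h3g, 0.0440 for Hist1h2bm and 0.0480 for Hist1h3e. Hist2h2bb had the widest span among those with a count in every library, from a log2 fold change of -1.76 (SE 0.80) at passage 14 to 2.98 (SE 0.62) at passage 8, on 1 to 36 counts a library. Its transcript held 0% of 50-base words of its own, so its values depend on how the authors' counting treated shared reads and are uncertain. Hist1h2bm ran from -3.40 (SE 1.17) at passage 8 to 1.46 (SE 0.83) at passage 10. The 2 libraries of a group were too few to test any one as an outlier.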

How the results depend on the processing

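The count of members higher in the mean of 8 passages stayed between 24 and 31, and that of members lower at 0, under every alternative run, and 19 members were called higher in each of them. The log2 ratio of the sums lay between 0.42 and 0.54, and between 0.52 and 0.55 with 1 library left out. Other counts moved more, and the cause was not tested. With DESeq2's test 2 members were higher at passage 10 and 1 at passage 14, 5 varied among passages, 4 fell over passages in ESC, and 0 rose in NrESC or differed in slope. With passage as the unit 0 members had a called slope in either arm or a difference of slopes. With no filter on low counts 1 member was lower at passage 14 and 3 had a lower slope in NrESC. With log2 TPM and a pseudocount of 0.1, 1 was lower at passage 2, 1 at passage 14 and 2 at passage 8, and 4 had a lower slope in NrESC; with a pseudocount of 1 these were 1, 1, 2 and 5. Without passage 4, 5 members fell in ESC, 10 fell in NrESC, 0 differed in slope and 7 varied. Without passage 8, 3 differed in slope. With 1 library left out, members higher ran from 3 to 11 at passage 0, 2 to 5 at passage 2, 18 to 23 at passage 4, 11 to 17 at passage 8, 2 to 6 at passage 10, 4 to 10 at passage 12 and 1 to 3 at passage 14. Members lower ran from 0 to 1 at passages 2, 6, 8, 12 and 14. Slopes called in ESC ran from 0 to 1 upward and 5 to 9 downward, in NrESC from 0 to 1 upward and 14 to 20 downward, 0 to 4 differed, and 8 to 13 members varied. With the replicate block 29 members were higher in the mean, 5 at passage 2, and 10 varied. The libraries share only a replicate number: the deviations of libraries with the same number correlated between -0.130 and 0.130 over 120 pairs of groups, with 5 over 0.1, so the block is no evidence of pairing.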
